A study of Saccharomyces cerevisiae with 3 samples.

Results

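The *VPS* genes of *Saccharomyces cerevisiae* were taken as the genes whose symbol in the array annotation is *VPS* followed by digits, which matched 40 of the 5449 genes measured. *VPS71* and *VPS72*, which encode subunits of the SWR1 chromatin remodeller, were left out, so 38 genes remained. Transcripts were measured on Affymetrix Yeast Genome 2.0 arrays in 3 strains. These were the wild type strain (WT, titled BY4742), the *SPT3* deletion strain (*spt3Δ*) and the *SPT8* deletion strain (*spt8Δ*). The strain list of the study gives both deletions as made with *KanMX*, but that list differs from the arrays as described below. All 3 strains were grown in YPD, a rich glucose medium, to an optical density of 0.7. Each strain was represented by 1 array, so differences carry no replicate error and no p-value was computed. Spt3 and Spt8 are subunits of the SAGA coactivator complex that contact the TATA-binding protein, and the question here is how far the *VPS* transcripts lay from WT when either subunit was missing.

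Genes named *VPS* were found in screens for yeast mutants that secrete vacuolar enzymes such as carboxypeptidase Y instead of sending them to the vacuole, the lysosome of yeast. Most of the products act on membrane traffic between the Golgi, endosomes and the vacuole. Sorting receptors bring cargo from the Golgi to endosomes, retromer and the GARP tether bring the receptors back, ESCRT complexes sort ubiquitinated membrane proteins into vesicles inside the endosome, and the CORVET and HOPS tethers, with Rab GTPases and SNARE proteins, join endosomes to each other and to the vacuole. A few *VPS* symbols belong to genes with other known roles, such as the histone chaperone gene *VPS75*.

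Each deleted gene was at background in its own mutant, *SPT3* at least 43.2-fold and *SPT8* at least 40.2-fold below WT. The array also carries *S. pombe* probe sets, and their 95th percentile, 6.67 to 8.61 per array, served as background. The bound sets the WT signal against the background of the mutant array. Genes of the α mating type were bright on every array (*STE3*, 1859 to 3727), those of the a type were dim (*STE2*, 29.5 to 50.7), and *URA3* and *LYS2* were not above background on any array. The title of the WT array names BY4742, a *MATα* strain, whereas the strain list of the study gives *MATa* *met15Δ0* genotypes without a *lys2* mutation. *MET17*, also called *MET15*, read 6686 in WT, 7739 in *spt3Δ* and 8377 in *spt8Δ*. The signals of all 3 arrays thus differ from the listed genotypes, so the *KanMX* cassettes of that list may not apply to the arrayed strains. Over all genes the median log2 ratio to WT was 0.15 in *spt3Δ* and 0.067 in *spt8Δ*, so a ratio of 0 is not the middle of either array pair, and ratios below are read against these medians.

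All 38 *VPS* genes were measured by 1 probe set each, none of them shared with another gene, and all were above background on all 3 arrays. Their signals ran from 88.0 to 2885 in WT, from 157 to 2441 in *spt3Δ* and from 115 to 2869.7 in *spt8Δ*. The dimmest in WT, *VPS51*, was 12.3-fold over the background of that array. Signals of different probe sets depend on the probes and are not compared as transcript levels.

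**Figure D1:**
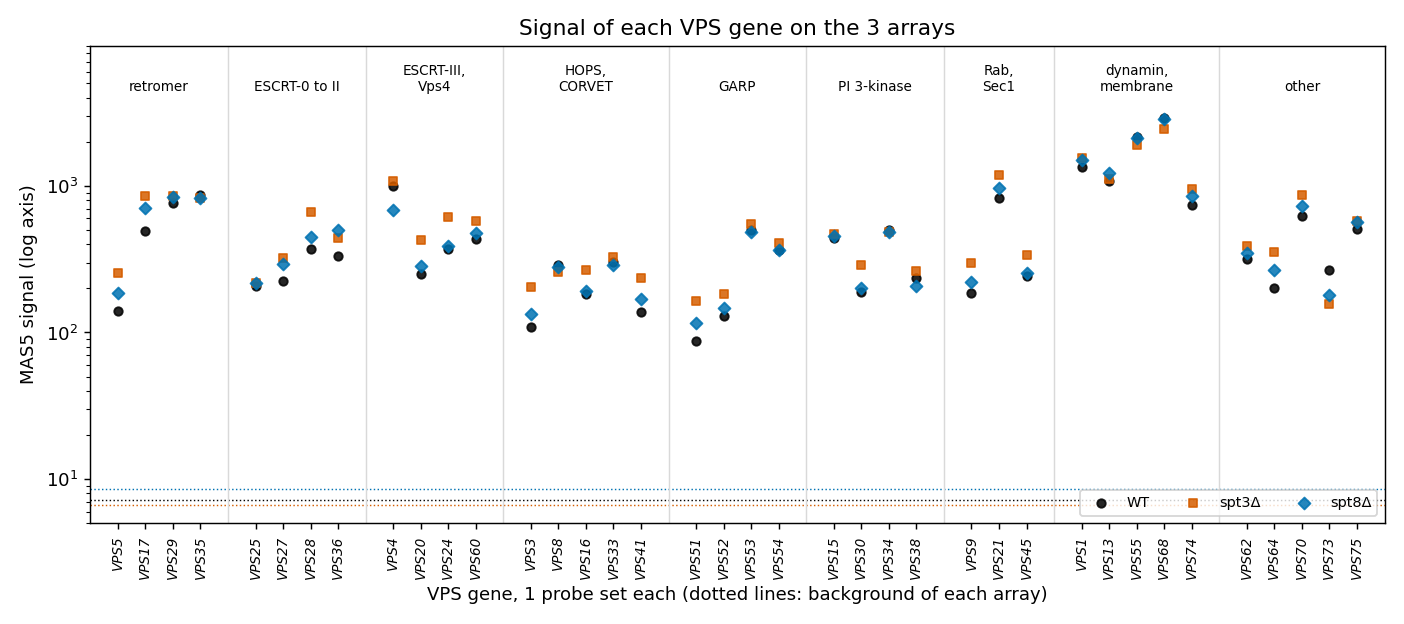
MAS5 signal (log axis) of each of the 38 *VPS* genes in WT (black circles), *spt3Δ* (orange squares) and *spt8Δ* (blue diamonds), 1 array per strain, grouped by role, with the background of each array as a dotted line. All signals lie well above background, and for most genes the orange square is the highest of the 3.

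None of the 38 *VPS* genes lay more than 2 SD from the mean ratio of all genes in *spt3Δ*, where 3.71% of all genes did, and none did in *spt8Δ*, where 3.76% of all genes did. The limits were log2 ratios of −1.26 and 1.47 in *spt3Δ* and of −0.91 and 1.01 in *spt8Δ*. None differed 2-fold either way in either mutant, a distance reached by 8.35% of all genes in *spt3Δ* and 3.54% in *spt8Δ*. This held for the signals as deposited, since *VPS73* in *spt3Δ* was past 2-fold after quantile (−1.03) and loess (−1.09) scaling. The *VPS* ratios were also less spread, with an SD over genes of 0.38 in *spt3Δ* and 0.24 in *spt8Δ*, against 0.59 and 0.38 for the other genes above background on all arrays. These other genes were not matched in signal. In 5 equal groups by signal, the SD of all genes in the dimmest was 1.07 in *spt3Δ* and 0.83 in *spt8Δ*. In groups 2 to 5, where most *VPS* genes lie, it was 0.43 to 0.59 and 0.30 to 0.35.

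Within these limits 32 of the 38 *VPS* genes read higher in *spt3Δ* than WT, as did 3334 of all 5449 genes, and 28 read higher in *spt8Δ*, as did 3208 of all genes. These counts were 22 in each mutant after quantile scaling and 21 in each after loess scaling, which fits the ratio as a curve of signal. The median log2 ratio of the 38 genes was 0.39 in *spt3Δ*, against 0.15 for all genes, and its quartiles were 0.11 and 0.66. In *spt8Δ* the median was 0.14, against 0.067 for all genes, and its quartiles were −0.0038 and 0.24. The ratios were above the median of all genes for 25 of the 38 in *spt3Δ* and for 23 in *spt8Δ*. A smaller distance, 1.5-fold from the median of all genes, was passed upward in *spt3Δ* by 8 *VPS* genes (21.1%; 11.6% of all genes) and downward by 1 (2.63%; 13.2% of all genes). In *spt8Δ* it was passed upward by none (3.96% of all genes) and downward by 2 (5.26%; 5.47% of all genes). After loess scaling, 2 of the 38, *VPS3* and *VPS51*, were higher by this distance in *spt3Δ*, against 9.40% of all genes, and 1 was lower, against 12.1%. In *spt8Δ* 2 were still lower, against 5.38%. The median in *spt3Δ* was then 0.12, against −0.0057 for all genes. With 50 added to each signal, 2 were higher in *spt3Δ*, against 7.60%, and none was lower in *spt8Δ*, against 2.79%. The count of 8 in *spt3Δ* was thus not kept under either. By 2 robust SD from the median, 2 genes were lower in *spt8Δ*, *VPS4* and *VPS73*, against 5.62% of all genes.

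**Figure D2:**
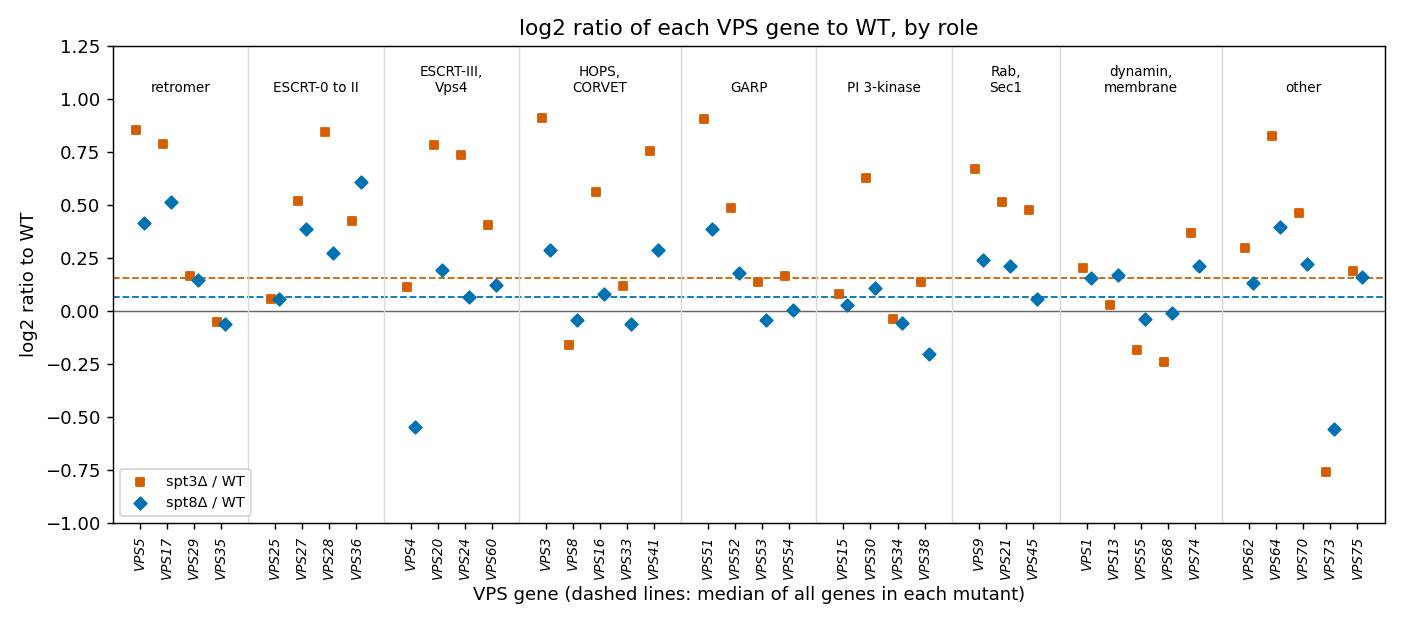
Log2 ratio to WT of each *VPS* gene in *spt3Δ* (orange squares) and *spt8Δ* (blue diamonds), 1 array per strain, grouped by role, with the medians of all 5449 genes as dashed lines. The *spt3Δ* ratios run from −0.76 for *VPS73* to 0.91 for *VPS3*, and the *spt8Δ* ratios from −0.56 for *VPS73* to 0.61 for *VPS36*.

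Retromer, the coat that returns the sorting receptor from endosomes to the Golgi, was uneven between its membrane-binding and cargo-binding parts. *VPS5* and *VPS17* encode the sorting nexins that bind the membrane. *VPS5* read 139.9 in WT, 253 in *spt3Δ* and 187 in *spt8Δ*, log2 ratios of 0.85 and 0.42. The signal of *VPS17* was 492, 849 and 703 in the same order, ratios of 0.79 and 0.51. For both genes WT had the lowest and *spt3Δ* the highest signal. *VPS35* and *VPS29* encode the part that binds cargo. *VPS35* read 861 in WT, 829.7 in *spt3Δ* and 825 in *spt8Δ*, ratios of −0.053 and −0.060, and *VPS29* had ratios of 0.17 and 0.15. *VPS35* lay under and *VPS29* just over the median of all genes, and *PEP8*, the other gene of the cargo-binding part, had ratios of 0.29 and 0.14.

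ESCRT-0, ESCRT-I and ESCRT-II hand ubiquitinated cargo along the endosome membrane. *VPS28* of ESCRT-I read 369 in WT, 664 in *spt3Δ* and 447 in *spt8Δ*, ratios of 0.85 and 0.28. *VPS27*, the ESCRT-0 subunit that binds ubiquitin and the lipid phosphatidylinositol 3-phosphate, read 225, 323 and 295, ratios of 0.52 and 0.39. In both genes the WT array was the lowest. *VPS36* of ESCRT-II had its highest signal in *spt8Δ*, reading 331, 443 and 503 in the order WT, *spt3Δ*, *spt8Δ*. Its ratio in *spt8Δ*, 0.61, was the highest of the 38 genes and lay above 95.2% of all genes. Its ESCRT-II partner *VPS25* had ratios of 0.057 and 0.056. Of the subunits with other symbols, *SNF8* of ESCRT-II had 0.51 and 0.35, *HSE1* of ESCRT-0 had 0.72 and 0.38, *SRN2* of ESCRT-I had 0.50 and −0.031, *STP22* of ESCRT-I had 0.34 and 0.13, and *MVB12* had 0.057 and 0.054 in *spt3Δ* and *spt8Δ*, respectively.

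ESCRT-III polymers cut the vesicle neck, and the ATPase Vps4 takes them apart. The gene of the ATPase and those of the polymer read differently. *VPS4* had signals of 1000.1 in WT, 1080.4 in *spt3Δ* and 686 in *spt8Δ*, so that *spt8Δ* alone was low, with a log2 ratio of −0.54, 1.46-fold lower than WT. A lower ratio in *spt8Δ* was read for 5.08% of all genes. In *spt3Δ* its ratio was 0.11, under the median of all genes. *VPS20*, whose product starts the polymer, read 250.3, 430.2 and 286 in WT, *spt3Δ* and *spt8Δ*, ratios of 0.78 and 0.19. *VPS24*, which caps it, read 368, 614 and 386, ratios of 0.74 and 0.067. For both genes the *spt8Δ* signal stayed near that of WT and *spt3Δ* was high. *VPS60*, an ESCRT-III-like gene, had ratios of 0.41 and 0.12. The main polymer gene *SNF7* read 465, 1051 and 630.5, ratios of 1.18 and 0.44, and *VTA1*, which encodes an activator of Vps4, read 395, 763 and 513, ratios of 0.95 and 0.38. *DOA4*, the enzyme that removes ubiquitin from cargo, was on the other side, with 246, 167 and 226 and ratios of −0.56 and −0.13.

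The CORVET and HOPS tethers share a core and differ in the subunits that bind Rab GTPases. *VPS3*, of CORVET, read 109 in WT, 204 in *spt3Δ* and 133 in *spt8Δ*. Its *spt3Δ* ratio of 0.91, 1.88-fold over WT, was the highest of the 38 genes, and that in *spt8Δ* was 0.29. *VPS8*, the other CORVET subunit, read 288, 258 and 280.0, ratios of −0.16 and −0.042. The 2 CORVET-specific genes therefore lay on opposite sides of WT in *spt3Δ*. *VPS41*, of HOPS, read 139, 234 and 169.6, ratios of 0.75 and 0.29. Its HOPS partner *VAM6* had 0.35 and 0.010. Of the core genes, *VPS33*, of the Sec1 family of SNARE-binding proteins, read 301, 326 and 289, ratios of 0.12 and −0.059, and *VPS16* had 0.56 and 0.081. The core genes *PEP3* had 0.68 and −0.12, and *PEP5* had 0.73 and 0.57.

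GARP tethers vesicles that return from endosomes to the Golgi, and its 4 subunits all carry *VPS* symbols. *VPS51* read 88.0 in WT, 165 in *spt3Δ* and 115 in *spt8Δ*, ratios of 0.91 and 0.39. *VPS52* read 130.2, 182 and 147, ratios of 0.49 and 0.18. *VPS53* and *VPS54* were close to the median of all genes, with ratios of 0.14 and −0.041 for *VPS53* and of 0.17 and 0.0073 for *VPS54*. The 4 subunits of this complex thus spanned from 0.14 to 0.91 in *spt3Δ*.

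The phosphatidylinositol 3-kinase Vps34 makes the lipid that marks endosomes. *VPS34* read 500.4 in WT, 487 in *spt3Δ* and 481 in *spt8Δ*, ratios of −0.039 and −0.056, and *VPS15*, its regulatory kinase, had ratios of 0.079 and 0.027. Both thus lay under the median of all genes in both mutants. *VPS38*, the subunit of the endosomal form of the complex, read 237, 261 and 206, ratios of 0.14 and −0.20. *VPS30*, which is in both the endosomal and the autophagy form, had 0.63 and 0.11. *ATG14* and *ATG38*, which belong to the autophagy form, were higher in *spt3Δ*: *ATG14* read 37.0, 82.7 and 55.1, ratios of 1.16 and 0.58, and *ATG38* read 78.6, 165 and 83.4, ratios of 1.07 and 0.085. Over the 34 measured *ATG* genes the median was 0.32 (SD 0.60 over genes) for *spt3Δ* and 0.019 (SD 0.45) for *spt8Δ*, a wider spread than among the *VPS* genes, which was not tested.

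Fusion with the endosome uses the Rab GTPase Vps21, its exchange factor Vps9 and the Sec1 family protein Vps45. *VPS21* had ratios of 0.52 and 0.21 in *spt3Δ* and *spt8Δ*, *VPS9* had 0.67 and 0.24, and *VPS45* had 0.48 and 0.055. All 3 were above the median of all genes in *spt3Δ*. The Rab gene *YPT52*, a relative of *VPS21*, read 939.6 in WT, 1848 in *spt3Δ* and 1382 in *spt8Δ*, ratios of 0.98 and 0.56. The Golgi Rab gene *YPT6* had 0.87 and 0.34, the SNARE genes *TLG2* and *VTI1* had 0.99 and 0.83 in the former mutant and 0.13 and 0.34 in the latter, and *YPT7*, the vacuolar Rab gene, had −0.11 and −0.048. The endosomal SNARE gene *PEP12* was highest in *spt8Δ*, with 231, 343 and 383 and ratios of 0.57 and 0.73. Of the 69 pathway genes with other symbols, 1 was past 2 SD from the mean ratio of all genes in *spt8Δ*, where 3.76% of all genes were. None of the 69 was in *spt3Δ*, against 3.71% of all genes. The 1 gene was *YPT53*, another relative of *VPS21*. It read 9.04 in WT, close to background, and 18.6 in *spt8Δ*, a ratio of 1.04, and its 6.08 in *spt3Δ* was not above background. Of all 69, 9 were higher and 6 lower than the median of all genes by 1.5-fold in *spt3Δ* (11.6% and 13.2% of all genes). In *spt8Δ* 3 were higher and 1 lower (3.96% and 5.47% of all genes). Without vacuolar cargo and V-ATPase genes, 46 remained, of which 9 were higher and 3 lower in *spt3Δ*, and 3 higher and none lower in *spt8Δ*. The median ratio of the 46 in *spt3Δ* was 0.50 as deposited and 0.21 after loess scaling.

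The 5 *VPS* genes grouped as dynamin, lipid transfer and other membrane proteins had a median ratio of 0.028 in *spt3Δ* and of 0.16 in *spt8Δ*. After loess scaling these medians were −0.14 and 0.085. *VPS1*, a dynamin-like GTPase, read 1355 in WT, 1559 in *spt3Δ* and 1511 in *spt8Δ*, ratios of 0.20 and 0.16. *VPS13*, a lipid transfer protein of membrane contact sites, had 0.028 and 0.17. *VPS74*, which keeps glycosyltransferases in the Golgi, had 0.37 and 0.21. *VPS55* and *VPS68* encode endosomal membrane proteins that form a complex, and both were lower in *spt3Δ*. *VPS55* read 2168, 1911 and 2113, ratios of −0.18 and −0.037, and *VPS68* read 2885, 2441 and 2869.7, ratios of −0.24 and −0.0075. These 2 were the only *VPS* genes among the brightest of 5 equal groups of genes, whose median ratio in *spt3Δ* was −0.14.

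Of the *VPS* symbols outside these complexes, only *VPS73* read lower than WT. *VPS73* encodes a protein similar to sugar transporters. It read 265 in WT, 157 in *spt3Δ* and 180.5 in *spt8Δ*, so WT was the highest array, above *spt3Δ* by 1.69-fold and above *spt8Δ* by 1.47-fold. Its ratios of −0.76 and −0.56 were the lowest of the 38 genes in both mutants, and 6.04% and 4.86% of all genes had a lower one. After quantile and loess scaling, but not as deposited, it was also past 2 robust SD in *spt3Δ*. It was the only *VPS* gene more than 1.5-fold under the median of all genes in *spt3Δ*, where 13.2% of all genes were. With *VPS4* it was one of 2 in *spt8Δ*, a share near the 5.47% of all genes. Its probed neighbours on the chromosome, *ARC1* and *RPL28*, had ratios in *spt3Δ* of 0.19 and −0.33, and in *spt8Δ* of 0.15 and −0.16, and those of *VPS4*, *YPR172W* and *DPB2*, had 0.12 and 0.26 in *spt8Δ*. *VPS64*, which is also known for its part in arrest by pheromone, was high in *spt3Δ*, with 201, 356 and 265 and ratios of 0.83 and 0.40. *VPS75*, a histone chaperone gene, had 0.19 and 0.16, *VPS62* had 0.30 and 0.13, and *VPS70* had 0.46 and 0.22.

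Both ratios use the same WT array, so the mutants were also compared directly. The signal was higher in *spt3Δ* than in *spt8Δ* for 32 of the 38 *VPS* genes and 3208 of all 5449 genes, and for 22 of the 38 after quantile or loess scaling. As deposited, the *VPS* genes had a median log2 difference of 0.21, against 0.086 for all genes. None passed 2 SD (3.47% of all genes) or 2-fold (3.63%), and none lay 1.5-fold from the median of all genes (11.0% of all genes). The widest differences were those of *VPS24* (0.67), *VPS4* (0.66), *VPS3* (0.62) and *VPS20* (0.59), of which 3 belong to the ESCRT-III and Vps4 group. The 4 *VPS* genes of that group, these 3 included, had a median of 0.62, and of 0.44 after loess scaling. That group was named because of these ranks, so its median is not separate from them. *VPS4* was low in *spt8Δ*, whereas *VPS20* and *VPS24* were high in *spt3Δ*. The *VPS* medians of the other roles ran from −0.14 (dynamin, lipid transfer and other membrane proteins) to 0.47 (HOPS and CORVET), with 0.42 for the Rab and Sec1 family genes. The 7 genes of the ESCRT-III and Vps4 group with other symbols had a median of 0.40, and of 0.25 after loess scaling. As deposited, 6 of these 7 were above 0 and 1, *DOA4* (−0.43), was below. In the opposite direction *VPS68* (−0.23), *VPS73* (−0.20) and *VPS36* (−0.18) had the higher signal in *spt8Δ*. After loess scaling the median difference over the 38 genes was 0.062.

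**Figure D3:**
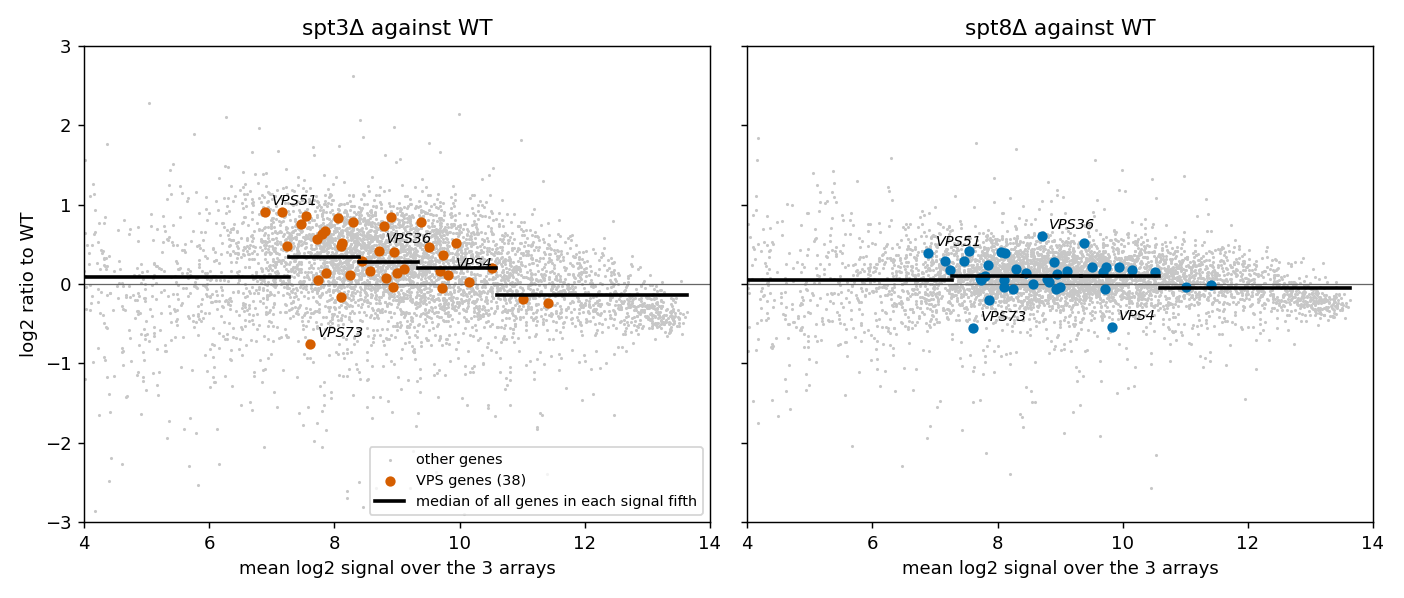
Log2 ratio to WT against the mean log2 signal over the 3 arrays for *VPS* genes (coloured points) and other genes (grey), with the median of all genes in each of 5 equal groups by signal as a black bar; 268 genes in the left panel and 251 in the right lie outside the axes. In *spt3Δ* the bars step from 0.34 in the group next to the dimmest to −0.14 in the brightest, and the *VPS* points are lower at higher signal.

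Over all genes the median ratio in *spt3Δ* differed by signal. In 5 equal groups by mean log2 signal, from dim to bright, the median ratio of all genes in *spt3Δ* was 0.086, 0.34, 0.28, 0.20 and −0.14, and in *spt8Δ* it was 0.055, 0.10, 0.098, 0.099 and −0.043. The *VPS* genes were spread over these groups as 3, 14, 10, 9 and 2 genes, with medians in *spt3Δ* of 0.91, 0.54, 0.24, 0.20 and −0.21 and in *spt8Δ* of 0.29, 0.094, 0.095, 0.17 and −0.022. Thus in *spt3Δ* the *VPS* medians lay close to those of all genes in the middle group and the next brighter one, and above them in the 2 dimmer groups. The dimmest group runs from a mean signal of 0.12 to 154, so its 3 *VPS* genes, none under 88.0 in WT, are not matched to it in signal. After loess scaling these 3 had *spt3Δ* ratios of 0.60 (*VPS3*), 0.64 (*VPS51*) and 0.17 (*VPS52*). Across the 38 genes, which are not replicates and share arrays, Pearson's r of the ratio with the mean log2 signal was −0.41 in *spt3Δ* and −0.16 in *spt8Δ*, and after loess scaling it was −0.23 and −0.093. Over all genes Pearson's r as deposited was −0.012 and −0.065. By rank, Spearman's rho was −0.17 and −0.10 over all genes and −0.46 and −0.20 over the *VPS* genes. Over all genes the relation was weak and not steady, since the dimmest group had a lower median than the next. What part the dependence on signal has in the *VPS* median was not tested beyond these scalings.

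**Figure D4:**
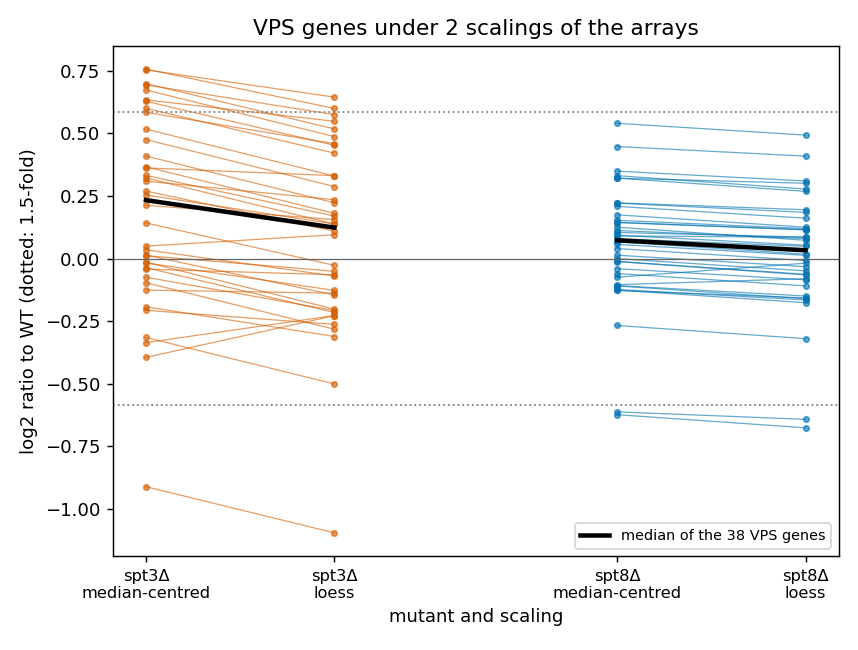
Log2 ratio to WT of each *VPS* gene (1 line each) with the ratios centred on the median of all genes or scaled by loess, in *spt3Δ* (orange) and *spt8Δ* (blue); the black lines join the medians of the 38 genes and the dotted lines mark 1.5-fold. In *spt3Δ* the median moves from 0.23 to 0.12, while *VPS73* stays lowest.

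Transcripts of vacuolar proteins were read as well, listed as cargo without regard to the route by which each reaches the vacuole. All 8 measured vacuolar cargo genes were under the median of all genes in *spt3Δ* (median −0.27), and 5 of the 8 were in *spt8Δ* (median −0.12). *PRC1*, carboxypeptidase Y itself, read 5613 in WT, 4776 in *spt3Δ* and 5304 in *spt8Δ*, ratios of −0.23 and −0.082, and the protease gene *PEP4* had −0.31 and −0.16. *PHO8*, the vacuolar alkaline phosphatase and a gene of the phosphate response, was 1.5-fold under the median of all genes in both mutants, with 2513, 1639 and 1538 and ratios of −0.62 and −0.71. The 15 measured genes of the V-ATPase, the proton pump of the vacuole, had medians of −0.25 and −0.12, and 13 of them lay under the median of all genes in each mutant. In *spt3Δ* 2 of the 15 were 1.5-fold under it, *VPH1* (−0.46) and *VMA5* (−0.49), a share near the 13.2% of all genes, and after loess scaling their ratios were −0.23 and −0.32. *PEP1*, the carboxypeptidase Y receptor, had ratios of −0.0084 and −0.095, and its relative *VTH1*, on a probe set shared with another gene, had −0.73 and −0.45. *MRL1*, a receptor-like gene, had 1.08 and 0.93 from a WT signal of 69.9. After loess scaling the cargo medians were −0.12 and −0.010 and those of the V-ATPase −0.085 and −0.046. Most of the distance of these medians from the median of all genes was thus not kept. Single genes kept more of it. In *spt3Δ* 7 of the 8 cargo genes were still under the median of all genes and 1 was over it. The lowest were *APE1* (−0.68), *PHO8* (−0.66) and *PRB1* (−0.47).

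None of the *VPS* genes was among the 8 outermost probed genes of a chromosome arm, the nearest being at place 22 from its end. The share of all genes at such places is small and was not computed, so this count is not read as a trait of the *VPS* genes. No 2 of them were neighbours among probed genes. *VPS72*, left out by the rule, lies between *VPS52* and *VPS60* and had ratios of 0.49 in *spt3Δ* and 0.18 in *spt8Δ*. The array's 28 *S. pombe* probe sets for *vps* genes, which have no target in these cells, read at most 5.83 in WT, 11.1 in *spt3Δ* and 11.0 in *spt8Δ*, under every signal of the *VPS* genes.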

How the data were processed

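RNA of 3 yeast strains was hybridized to 1 Affymetrix Yeast Genome 2.0 array each. The authors processed the scans with MAS5 at default settings, and the submitters' processing notes also name Affymetrix Expression Console without versions. Each deposited intensity value is a linear, background-corrected signal of 1 probe set, scaled per array; detection calls were not used. Of 10928 probe sets, 5498 had 1 *S. cerevisiae* gene, 1746 an *S. pombe* gene, 1 several genes (left out) and 3683 no name. Where 1 gene had several probe sets their log2 signals were averaged, giving 5449 genes (Python 3.11.15, pandas 2.3.3, statsmodels 0.14.6), and genes were named and ordered through the R64 gene table.

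A gene was called past 2 SD from the mean ratio of all genes, a multiple that the study also uses; the limits were computed here over the 5449 genes and are not those of the study. Limits of 2-fold, 1.5-fold from the median and 2 robust SD (1.4826 times the median absolute deviation), quantile and loess scaling (span 0.3), centring, 50 added to each signal, a background filter and unshared probe sets were alternatives. The number of arrays limits the precision. The members and lists, and the rule for named genes (those past a limit or 1.5-fold, the 5 lowest and highest ratios, the 3 brightest and dimmest, and pathway genes past 1.5-fold), were chosen with earlier results of these data known. Other members, further pathway genes, chromosome neighbours and *VPS72* were named after their values were seen. Of these steps, the 2 SD call and quantile scaling were run on simulated data, whose ratios were less spread than those measured. The other limits, loess scaling and the filters were not. Promoter motifs and overlapping reading frames were planned and not analysed here.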

Additional observations from a re-analysis of the deposited data

Results flagged for a closer look

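Of the 28 *S. pombe* *vps* probe sets, 2 read above the background of an array although the comparisons did not use them. The highest signal of the *vps55* probe set was 1.66-fold the background of its array, and that of *vps45* was 1.04-fold. Background is itself a percentile of the *S. pombe* probe sets, so some of them lie above it by construction.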

How the results depend on the processing

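None of the 38 *VPS* genes passed 2 SD in *spt3Δ*, *spt8Δ* or the direct comparison under any of the 6 other scalings and filters. As deposited none passed 2-fold, but the ratio of *VPS73* in *spt3Δ* was −1.03 after quantile and −1.09 after loess scaling. With 2 robust SD, 2 were lower in *spt8Δ* (*VPS4* and *VPS73*), and with 1.5-fold from the median of all genes 1 was lower and 8 higher in *spt3Δ* and 2 lower in *spt8Δ*. With no replicates, a median was taken to move when it shifted by more than the median range between probe sets of 1 gene (0.21 in *spt3Δ*, 0.20 in *spt8Δ*, 0.11 directly). For *spt8Δ* this measure is wider than most medians and shows nothing about their stability: the median of the *VPS* genes went from 0.14 to 0.057 after quantile and 0.033 after loess scaling, and loess turned those of ESCRT-III and Vps4 (−0.018), HOPS and CORVET (−0.032) and GARP (−0.015) negative. In *spt3Δ* the median of the *VPS* genes was 0.17 after quantile and 0.12 after loess scaling, and directly it was 0.083 and 0.062. Quantile and loess medians in *spt3Δ* were 0.20 and 0.14 for ESCRT-0 to ESCRT-II, 0.34 and 0.29 for ESCRT-III and Vps4, 0.30 and 0.22 for HOPS and CORVET, 0.072 and 0.021 for GARP, −0.15 and −0.20 for the 3-kinase and 0.0099 and −0.027 for the other symbols; for retromer loess gave 0.23. Loess removes the trend of the ratio with signal by construction. With 50 added to each signal no *VPS* gene was 1.5-fold from the median in *spt8Δ*, and 2 were higher in *spt3Δ*. *VPS73* was lower in *spt3Δ* under all 6, with log2 ratios from −1.09 to −0.61. No paired analysis was possible because each strain has 1 array. All 38 genes were above background on every array, yet the 1.5-fold counts depended on what was added to the signal.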
